A study of Mus musculus with 6 samples.

Results

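Liver endothelial markers and angiocrine factors were followed in liver RNA of 12-week-old C57BL/6 mice, collected 48 h after PHx, partial hepatectomy, in which liver lobes are removed and the remnant regrows. The genes were 39 of the 34745 in the deposited expression table, found by gene name: 11 sinusoidal, 18 pan-endothelial, 5 vessel-type and 5 angiocrine genes. All 39 were matched. Sequencing compared 3 libraries labelled Sox9HKO (called HKO) with 3 labelled Sox9f/f (called WT). The WT mice carry the floxed Sox9 allele, and every mouse of both groups underwent PHx. The Cre driver and the exons it removes are not given in the sources used here, and neither is the number of mice behind the libraries. The tests therefore see only library-to-library variation, which may be technical. The labels give liver as tissue and hepatocyte as cell type. Genes of other cell types were nevertheless counted, the endothelial ones below among them.

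The liver sinusoid is lined by a fenestrated endothelium that clears macromolecules from blood through scavenger receptors such as the stabilins. These cells also signal to neighbouring hepatocytes. Endothelial Wnt ligands and R-spondin 3 maintain gene expression around the central vein, BMP2 and BMP6 control hepcidin and thereby iron, and during regrowth after PHx sinusoidal endothelium divides and is regarded as a source of growth signals.

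The libraries held 16659778 to 21168233 counts. Sox9, the targeted gene, stood at 6.34, 4.30 and 4.78 CPM (counts scaled to library size by the TMM method) in HKO 1, 2 and 3 and at 6.94, 13.7 and 11.4 CPM in WT 1, 2 and 3 (log2 fold change -1.05, adjusted p = 0.0284, or -0.94 and 0.0503 when HKO 2 is left out). HKO 2 stood apart from the other libraries, with 25.9% of its counts in the 13 mitochondrial genes against 12.1% to 16.3% elsewhere. Fold changes of the 39 genes are therefore given with and without HKO 2. Calls are those of edgeR with TMM scaling, its default expression filter and no replicate block, unless another tool or setting is named. This is called the main fit. Of 10 hepatocyte markers, 2 were called higher in HKO (Tat and Cps1) and 1 lower (Serpina1a), beside 12.1% and 11.2% of all genes tested. The median log2 fold change of the 10 was 0.18. They summed to 86293 to 110244 CPM across the libraries, while the most abundant endothelial marker, Aqp1, reached 207 CPM at most.

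Endothelial and angiocrine genes were highest in HKO 2 in all 39 cases, including Sox17, which was too low to test. Across the 12556 genes tested, HKO 2 was the highest of the 6 libraries in 16.4%. In HKO 2, 36 of the 38 tested genes were at least 2-fold above the mean of HKO 1 and HKO 3, which held for 8.54% of all tested genes. The median of the 38 on the log2 scale, relative to the WT mean, reached 2.08 in HKO 2, against 0.35 in HKO 1 and 0.55 in HKO 3. In WT 1, 2 and 3 it was -0.31, 0.22 and 0.03. The elevation in HKO 2 thus ran through the whole set. In HKO 1 and HKO 3 a smaller one was present in the median but not in every gene. Emcn, Ecscr and Icam2 lay below the WT mean in both of these libraries. In bulk RNA, a change in the number of endothelial cells and a change in RNA per cell cannot be told apart.

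**Figure D1:**
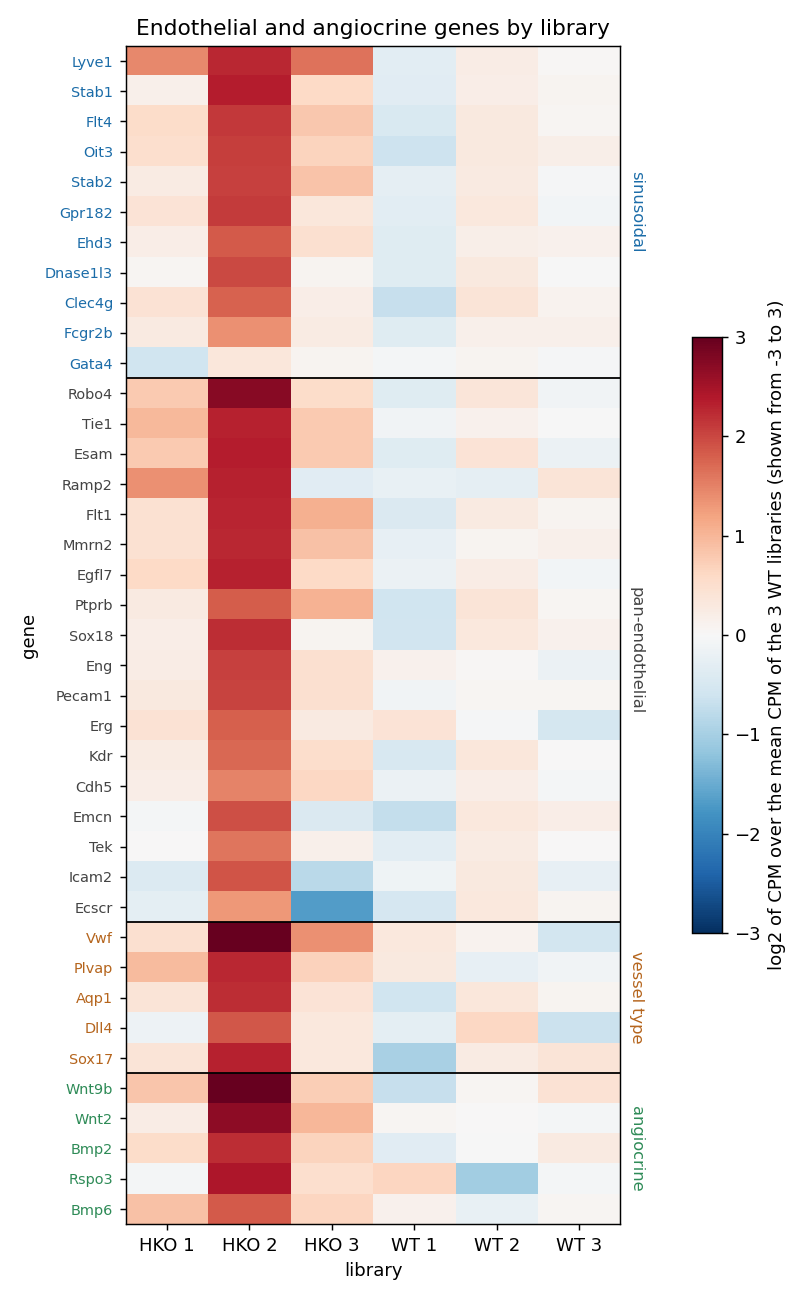
Levels of the 39 genes (rows, grouped by class) in the 6 libraries (columns), as the log2 of CPM over the mean of the 3 WT libraries, with colours ending at -3 and 3. The HKO 2 column is red throughout, and Vwf and Wnt9b lie beyond the end of the scale there. HKO 1 and HKO 3 are paler, and Lyve1 is the row where they are deepest.

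Of the 38 tested genes, 3 passed the test between HKO and WT: Lyve1, Tie1 and Plvap, 1 each from the sinusoidal, pan-endothelial and vessel-type classes, and all higher in HKO (edgeR quasi-likelihood test, adjusted p below 0.05, against 12.1% of all genes tested called higher). None was called lower, and none was lower at an unadjusted p below 0.05 by edgeR, or called lower by DESeq2 or limma-voom. The log2 fold change was above 0 in 37 of 38, with a median of 1.23 beside 0.02 for all genes tested. A further 17 genes had an adjusted p between 0.05 and 0.1, a range not counted for all genes tested, so no share stands beside it. Leaving out HKO 2 lowered the median to 0.41, yet 4 genes then passed, again all higher: Lyve1, Tie1, Plvap and Egfl7 (12.5% of all genes tested were called higher there). The count was 20 by DESeq2 (12.8% of all genes) and 2 by limma-voom (11.7%), 12 with no expression filter (7.71%) and 16 with a replicate block (9.92%). It ran from 1 without any single WT library to 12 without HKO 1. No share of all genes was counted for these fits, so the counts cannot be set against the whole table.

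All 3 HKO libraries lay above all 3 WT libraries in 21 of the 38 tested genes, and so did 22.6% of all genes tested. For 3 libraries against 3, the smallest two-sided exact permutation p is 0.1. Setting HKO 2 aside, HKO 1 and HKO 3 both lay above every WT library in 21 of 38, beside 27.2% of all genes tested. The log2 fold change stayed above 0 in 34 of 38 without HKO 2, and was below 0 in Gata4, Emcn, Ecscr and Icam2.

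**Figure D2:**
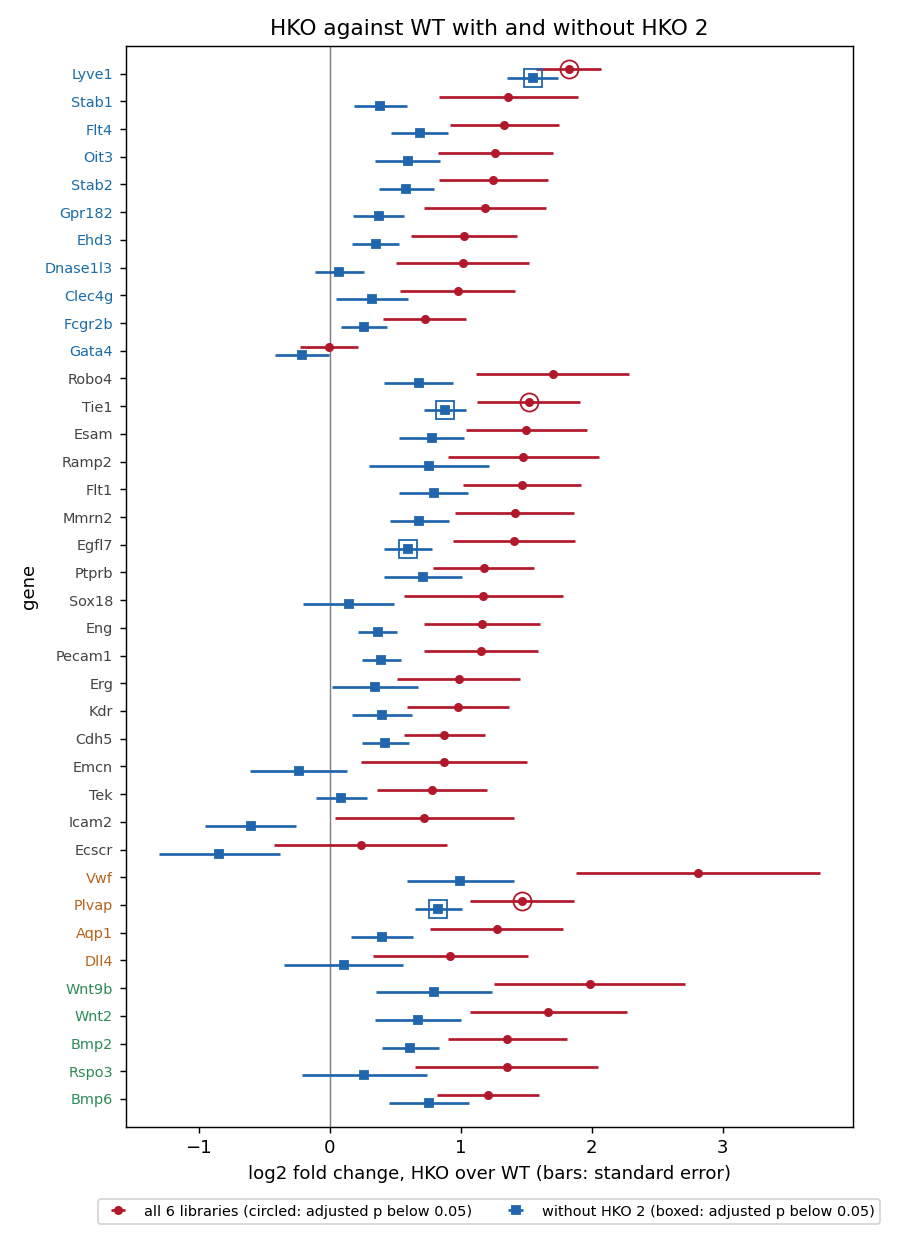
Log2 fold change of HKO over WT (x axis, with standard errors) for the 38 tested genes (y axis), from all 6 libraries (red circles) and without HKO 2 (blue squares), with called genes ringed. Lyve1, Tie1 and Plvap are called in both comparisons and Egfl7 without HKO 2 only, and most blue squares lie nearer 0 than the red circles.

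Because the genes were elevated together in HKO 2, the 250 bases before their RefSeq start sites (build GRCm38.p6) were searched for short motifs of transcription factor families known in endothelium. Sequences were found for 20 of the 39 genes. Those without an entry were Lyve1, Oit3, Gata4, Dnase1l3, Gpr182, Pecam1, Cdh5, Esam, Ptprb, Sox18, Mmrn2, Ramp2, Ecscr, Icam2, Vwf, Sox17, Plvap, Rspo3 and Bmp2. An ETS match (AGGAAG or CCGGAA on either strand), the family of ERG, was present in 11 of 20, and in 39.4% of 18558 promoters of the same length. A GATA match (AGATAA, either strand), the family of GATA4, was present in none of the 20 and in 8.85% of all. A SOX match (ACAATG or ACAAAG, either strand) was present in 3 of 20 and 23.4% of all, and a FOX match (TAAACA, either strand) in 1 of 20 and 10.8% of all. The sequences below are 1 from each class, chosen with the matches known, to show windows with and without the ETS letters, which are in capitals.
Clec4g (chr8:3720652-3720901, minus strand): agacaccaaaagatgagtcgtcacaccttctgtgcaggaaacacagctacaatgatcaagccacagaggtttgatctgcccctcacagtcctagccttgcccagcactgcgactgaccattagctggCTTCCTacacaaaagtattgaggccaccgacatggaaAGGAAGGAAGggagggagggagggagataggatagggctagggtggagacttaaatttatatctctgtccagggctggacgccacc
Flt1 (chr5:147726012-147726261, minus strand): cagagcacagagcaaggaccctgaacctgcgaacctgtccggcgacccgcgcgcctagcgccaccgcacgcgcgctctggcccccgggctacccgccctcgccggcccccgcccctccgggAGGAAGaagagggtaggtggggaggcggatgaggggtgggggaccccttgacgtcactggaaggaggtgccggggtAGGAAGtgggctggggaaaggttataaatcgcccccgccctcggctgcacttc
Aqp1 (chr6:55336049-55336298, plus strand): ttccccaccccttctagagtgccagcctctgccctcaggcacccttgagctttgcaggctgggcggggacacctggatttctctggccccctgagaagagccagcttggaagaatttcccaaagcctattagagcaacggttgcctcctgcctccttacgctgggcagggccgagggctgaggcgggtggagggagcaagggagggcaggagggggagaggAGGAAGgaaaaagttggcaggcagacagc
Wnt9b (chr11:103749822-103750071, minus strand): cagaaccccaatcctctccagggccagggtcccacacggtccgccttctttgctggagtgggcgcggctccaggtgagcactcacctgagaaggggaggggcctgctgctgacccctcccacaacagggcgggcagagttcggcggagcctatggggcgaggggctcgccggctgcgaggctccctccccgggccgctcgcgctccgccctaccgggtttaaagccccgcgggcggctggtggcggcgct
Each is written 5′ to 3′ on the gene's strand and ends just before the start site. Clec4g has 3 ETS matches, of which 1 pair at -86 and -82 overlaps by sharing letters, Flt1 has 2 (at -129 and -53), Aqp1 has 1 (at -29) and the Wnt9b window has none, although Clec4g, Flt1, Aqp1 and Wnt9b were all highest in HKO 2 (2.74-fold, 2.83-fold, 3.51-fold and 4.95-fold above the mean of HKO 1 and HKO 3).

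Among the sinusoidal genes, Lyve1 was called and the other 10 did not pass. Lyve1 (ENSMUSG00000030787, chromosome 7, 110850607 to 110862953, minus strand, GRCm38) encodes a hyaluronan receptor of sinusoidal and lymphatic endothelium, also present on some macrophages. It stood at 11.1, 19.4 and 12.6 CPM in HKO 1, 2 and 3, against 3.28, 4.72 and 4.15 CPM in WT 1, 2 and 3. Every HKO library was more than 2-fold above every WT library, and HKO 2 exceeded the mean of the other HKO libraries by 1.63-fold, less than in any other of the 39 genes but Gata4. Over all libraries the difference was 1.82 ± 0.25 on the log2 scale (SE, adjusted p = 0.00257), and it was 1.55 ± 0.19 without HKO 2 (SE, adjusted p = 0.00114). It was called in all 14 settings tried, the 6 that leave out a library included, with log2 fold changes from 1.55 to 1.96 in those 6. Kupffer cell and macrophage markers moved too: 13 of 15 were called higher and 1 lower, beside 12.1% and 11.2% of all genes tested. The CPM of the 15 markers summed to 551 and 542 in HKO 1 and HKO 3, to 369.7 in HKO 2 and to between 406 and 429 in WT. Mpeg1, the marker called lower, weighs on that sum: the other 14 markers summed to 478, 309.8 and 453 CPM in HKO 1, 2 and 3, all above the 209 to 219.8 CPM of WT. Their part in the Lyve1 difference was not tested. Of the lymphatic markers, HKO 2 had 1.98 CPM of Pdpn and 0.989 CPM of Mmrn1, each of which was at 0 in all WT libraries. Prox1, a lymphatic marker that hepatocytes also express, stood at 114 CPM in HKO 2 and was not called (log2 fold change 0.07).

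The scavenger receptor genes followed the set without passing the test. Stab2, which encodes a hyaluronan-clearing scavenger receptor, stood at 30.3, 106 and 45.8 CPM in HKO 1, 2 and 3, against 21.1, 30.4 and 24.8 CPM in WT 1, 2 and 3. HKO 1 lay below WT 2, so the groups overlapped (log2 fold change 1.25, adjusted p = 0.0648, against 0.58 without HKO 2). Stab1, its paralogue, overlapped between the groups as well, with 18.7, 87.0 and 25.6 CPM in HKO against 13.4 to 19.6 CPM in WT (log2 fold change 1.36, adjusted p = 0.101, against 0.39 without HKO 2). Its exons overlap those of Nt5dc2 on the opposite strand, and the library protocol describes no strand-marking step, so part of the Stab1 counts is uncertain. Nt5dc2 held 193 to 296 counts and did not pass the test (log2 fold change 0.32), against 242 to 1496 counts for Stab1. Fcgr2b, an Fc receptor that clears immune complexes, was at 24.3, 51.9 and 24.1 CPM in HKO and 15.6 to 22.6 CPM in WT. Its groups did not overlap, but HKO 1 and HKO 3 exceeded the highest WT library by little, and the call was not made (log2 fold change 0.72, adjusted p = 0.13, against 0.26 without HKO 2).

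The other sinusoidal genes had their excess mainly in HKO 2. Ehd3, an endocytic recycling gene, had the highest sinusoidal level per gene length in WT, 8.95 ± 1.34 FPKM (FPKM is the deposited length-scaled level, with SD and n = 3). It stood at 37.9, 117 and 45.9 CPM in HKO 1, 2 and 3, against 25.6, 37.0 and 36.2 CPM in WT 1, 2 and 3. HKO 1 was barely above WT 2 (log2 fold change 1.03, adjusted p = 0.104, and 0.35 without HKO 2). Flt4, the VEGF-C receptor, came nearest to the threshold with and without HKO 2 (log2 fold change 1.33 and 0.69, adjusted p = 0.0527 and 0.0521), and Oit3 had 1.26 and 0.60. Gpr182, a chemokine-scavenging receptor, and Clec4g, a C-type lectin, had 1.18 and 0.98 with HKO 2 and 0.38 and 0.32 without it. Dnase1l3, a secreted nuclease gene, had 21.3, 81.1 and 21.6 CPM in HKO, against 16.0 to 25.0 CPM in WT. HKO 1 and HKO 3 thus lay inside the WT range, and the log2 fold change went from 1.01 to 0.07 without HKO 2. The exons of Gpr182 overlap those of Zbtb39 on the opposite strand (104 to 151 counts for Zbtb39).

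Gata4 was the exception in this class. It encodes a transcription factor needed for sinusoidal identity and is also expressed in stellate cells. Gata4 stood at 8.92, 17.2 and 14.4 CPM in HKO 1, 2 and 3, against 13.1, 14.4 and 13.2 CPM in WT 1, 2 and 3. Its log2 fold change was -0.01 (SE 0.22, adjusted p = 0.987), with HKO 1 the lowest library of the 6, and -0.21 without HKO 2. The excess of HKO 2 over the mean of HKO 1 and HKO 3 was 1.47-fold, the smallest of the 39 genes, which ranged up to 8.72-fold.

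Of the 18 pan-endothelial genes, Tie1 passed the test. Tie1 (ENSMUSG00000033191, chromosome 4, 118471191 to 118490061, minus strand) encodes an orphan receptor that works with the angiopoietin receptor TEK. It stood at 12.8, 32.1 and 11.1 CPM in HKO 1, 2 and 3, against 6.00, 7.08 and 6.41 CPM in WT 1, 2 and 3. The groups did not overlap, and the 3 WT libraries were close together (6.50 ± 0.544 CPM, SD, n = 3). The log2 fold change was 1.52 (SE 0.39, adjusted p = 0.0281). It was smaller but more precise without HKO 2, at 0.88 (SE 0.16, adjusted p = 0.00594). The call was lost without WT 1, WT 2 or WT 3 (adjusted p = 0.0796, 0.0728 and 0.0962).

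Tek itself differed from Tie1 in its pattern. Tek was at 7.90, 24.0 and 8.75 CPM in HKO 1, 2 and 3, against 6.33, 9.27 and 7.93 CPM in WT 1, 2 and 3, so that HKO 1 and HKO 3 fell inside the WT range. Its log2 fold change was 0.78 (adjusted p = 0.208) and 0.09 without HKO 2 (adjusted p = 0.781). Ptprb, the phosphatase that restrains TEK, had 1.18 and 0.71 and stood highest outside HKO 2 in HKO 3, at 52.7 CPM against 30.6 CPM in HKO 1 and 16.9 to 33.0 CPM in WT.

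Egfl7 was not called over all 6 libraries in the main fit, and it was called without HKO 2. Across the 14 settings it was called in 6. The others were DESeq2, column totals, no expression filter, a replicate block and leaving out HKO 3. Egfl7 (ENSMUSG00000026921, chromosome 2, 26580014 to 26593120, plus strand) encodes a secreted endothelial matrix protein. It stood at 8.22, 27.0 and 8.25 CPM in HKO 1, 2 and 3, against 4.83, 6.35 and 5.13 CPM in WT 1, 2 and 3, with no overlap. The log2 fold change was 1.41 (SE 0.47, adjusted p = 0.0642) with HKO 2 and 0.60 (SE 0.18, adjusted p = 0.0467) without it. Exons of Egfl7 overlap those of Agpat2 on the opposite strand. Agpat2 held 917 to 3149 counts, far more than the 84 to 464 of Egfl7, was lowest in HKO 2 and highest in WT 3, and did not pass the test (log2 fold change -0.03, or 0.31 without HKO 2).

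The VEGF receptor genes had positive values with no call in the main edgeR fit, with or without HKO 2. Across the 14 settings Flt1 was called in 7, Flt4 in 5 and Kdr in 2. DESeq2 and the edgeR fit with a replicate block called each of them (12.8% and 9.92% of all genes tested were called higher there). Column totals, no expression filter and leaving out HKO 1 called Flt1 and Flt4. RLE scaling and at least 10 counts in every library called Flt1. Flt1, which encodes VEGF receptor 1, stood at 6.39, 22.7 and 9.66 CPM in HKO 1, 2 and 3, against 3.44, 5.62 and 4.88 CPM in WT 1, 2 and 3, without overlap (log2 fold change 1.47, adjusted p = 0.0506, against 0.79 without HKO 2). Kdr, the main signalling receptor for VEGF-A, was at 21.8, 60.2 and 26.6 CPM in HKO and 13.1 to 23.4 CPM in WT, with overlap (log2 fold change 0.98 and 0.40). Flt1 was thus just above the threshold and Kdr further from it. The difference between the receptors was not tested.

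Junction and adhesion genes split into a group with elevated values in all HKO libraries and a group without. Cdh5, which encodes VE-cadherin, had the highest pan-endothelial level per gene length in WT (3.32 ± 0.318 FPKM, SD, n = 3). It stood at 15.3, 37.5 and 20.3 CPM in HKO 1, 2 and 3, against 11.8, 15.3 and 12.7 CPM in WT 1, 2 and 3. HKO 1 lay just below WT 2 (log2 fold change 0.87, adjusted p = 0.0766, and 0.43 without HKO 2). Esam, an adhesion molecule of endothelial junctions, Pecam1, Robo4 and Mmrn2 did not overlap between the groups. They had log2 fold changes of 1.50, 1.16, 1.70 and 1.41 with HKO 2 and 0.78, 0.39, 0.68 and 0.68 without it. Eng, a co-receptor for BMP9, did not overlap either (1.16 and 0.37), and its exons overlap those of Fpgs on the opposite strand, which held 1874 to 3031 counts and did not pass the test.

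Emcn, Icam2 and Ecscr differed in sign with and without HKO 2. Icam2, an adhesion molecule, stood at 1.13, 5.58 and 0.866 CPM in HKO 1, 2 and 3, against 1.39, 1.85 and 1.28 CPM in WT 1, 2 and 3. HKO 1 and HKO 3 were the lowest libraries and HKO 2 the highest, and the log2 fold change was 0.72 with HKO 2 and -0.60 without it. Ecscr, an endothelial surface protein gene, gave 0.24 and -0.84 from 1.56, 4.65 and 0.592 CPM in HKO 1, 2 and 3 and 1.33 to 2.36 CPM in WT. Emcn, a sialomucin gene of capillaries and veins, gave 0.87 and -0.24. None of these passed the test in either comparison.

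The remaining pan-endothelial genes were Ramp2, Erg and Sox18. Ramp2, which encodes the partner of the adrenomedullin receptor, stood at 9.56, 18.3 and 2.92 CPM in HKO 1, 2 and 3, against 3.17, 3.03 and 4.82 CPM in WT 1, 2 and 3. HKO 3 was therefore the lowest library, and the log2 fold change of 1.48 had an SE of 0.58 (adjusted p = 0.101), and it was 0.76 without HKO 2. Its exons overlap Vps25 on the same strand, which held 413 to 626 counts. The transcription factor genes Erg and Sox18 were at 2.26, 5.76 and 2.01 CPM and at 1.72, 6.92 and 1.59 CPM in HKO 1, 2 and 3. Their log2 fold changes were 0.98 and 1.17, and 0.34 and 0.14 without HKO 2. The ratio of HKO 3 to HKO 1 was larger for longer genes: across the 38 genes, Spearman's rho of the log2 ratio of HKO 3 to HKO 1 with gene length was 0.35, and across 12524 tested genes it was 0.37. These genes share the same libraries, and the part of length in the values above was not tested.

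Among the vessel-type genes, Plvap was called. Plvap (ENSMUSG00000034845, chromosome 8, 71497754 to 71511769, minus strand) encodes the diaphragm protein of fenestrae and caveolae, found in larger vessels and in sinusoids that lose their open fenestrae. It stood at 32.3, 79.8 and 27.0 CPM in HKO 1, 2 and 3, against 20.4, 14.2 and 15.5 CPM in WT 1, 2 and 3. All HKO libraries lay above all WT libraries. The log2 fold change was 1.47 (SE 0.40, adjusted p = 0.033), and 0.83 (SE 0.18, adjusted p = 0.0129) without HKO 2. The call was lost without WT 1, WT 2 or WT 3 (adjusted p = 0.0569, 0.103 and 0.113).

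Vwf had the largest excess in HKO 2. It encodes von Willebrand factor, a clotting protein of larger vessels that is low in sinusoids. Vwf stood at 1.24, 15.5 and 2.32 CPM in HKO 1, 2 and 3, against 1.11, 0.955 and 0.610 CPM in WT 1, 2 and 3, from 23, 267 and 51 counts and 20, 17 and 10 counts. HKO 2 was 8.72-fold above the mean of the other HKO libraries, the highest such value of the 39 genes. HKO 1 was close to WT 1, and the log2 fold change was 2.81 (SE 0.93, adjusted p = 0.0636) and 0.997 (SE 0.41, adjusted p = 0.114) without HKO 2. Platelet markers, which share von Willebrand factor with endothelium, summed to 5.76 CPM in HKO 2, 1.78 to 2.52 CPM in HKO 1 and HKO 3 and 0.915 to 2.06 CPM in WT, and their part was not tested.

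Aqp1, a water channel gene shared by endothelium, bile ducts and red cells, had the highest level per gene length of all 39 genes in WT (16.9 ± 4.55 FPKM, SD, n = 3). It stood at 58.7, 207 and 59.2 CPM in HKO 1, 2 and 3, against 29.6, 56.9 and 47.7 CPM in WT 1, 2 and 3. HKO 1 and HKO 3 exceeded WT 2 by little, and the log2 fold change of 1.27 (adjusted p = 0.105) went to 0.40 without HKO 2. Bile duct markers summed to 40.6 to 44.5 CPM in HKO 1 and HKO 3, 63.4 CPM in HKO 2 and 73.4 to 183 CPM in WT, mostly from Spp1. Of 4 tested duct markers none was called higher and 3 were called lower (Spp1, Sox9 and Pkhd1), or 2 without HKO 2. Across all genes tested, 11.2% were called lower (12.2% without HKO 2). Pkhd1 stood at 6.46 CPM in HKO 2, against 8.83 to 12.5 CPM in WT. The duct keratin genes Krt19 and Krt7, which were not tested, were instead highest in HKO 2, at 3.20 and 2.44 CPM. They reached at most 0.449 and 0.281 CPM elsewhere. Red cell markers summed to 74.5 to 75.8 CPM in HKO 1 and HKO 3, 68.7 CPM in HKO 2 and 53.2 to 61.3 CPM in WT, mostly from Alas2. The globin gene Hba-a1 was highest in HKO 2 (8.84 CPM, with 1.72 CPM in HKO 1 and at most 0.281 CPM in WT). Hba-a1 was called higher, as were Hbb-bs and Hbb-bt. Hbb-bt reached at most 0.061 CPM in WT. Hba-a1 and Hbb-bt thus passed the expression filter only through HKO, where they were high. The part of these cells in the Aqp1 values was not tested. Dll4, the arterial Notch ligand gene, had 10 to 59 counts and values of 0.92 and 0.11. Sox17, an arterial transcription factor gene, had 3 to 28 counts and was not tested. Sox17 reached 0.430, 1.63 and 0.410 CPM in HKO 1, 2 and 3, with 0.167 to 0.427 CPM in WT.

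**Figure D3:**
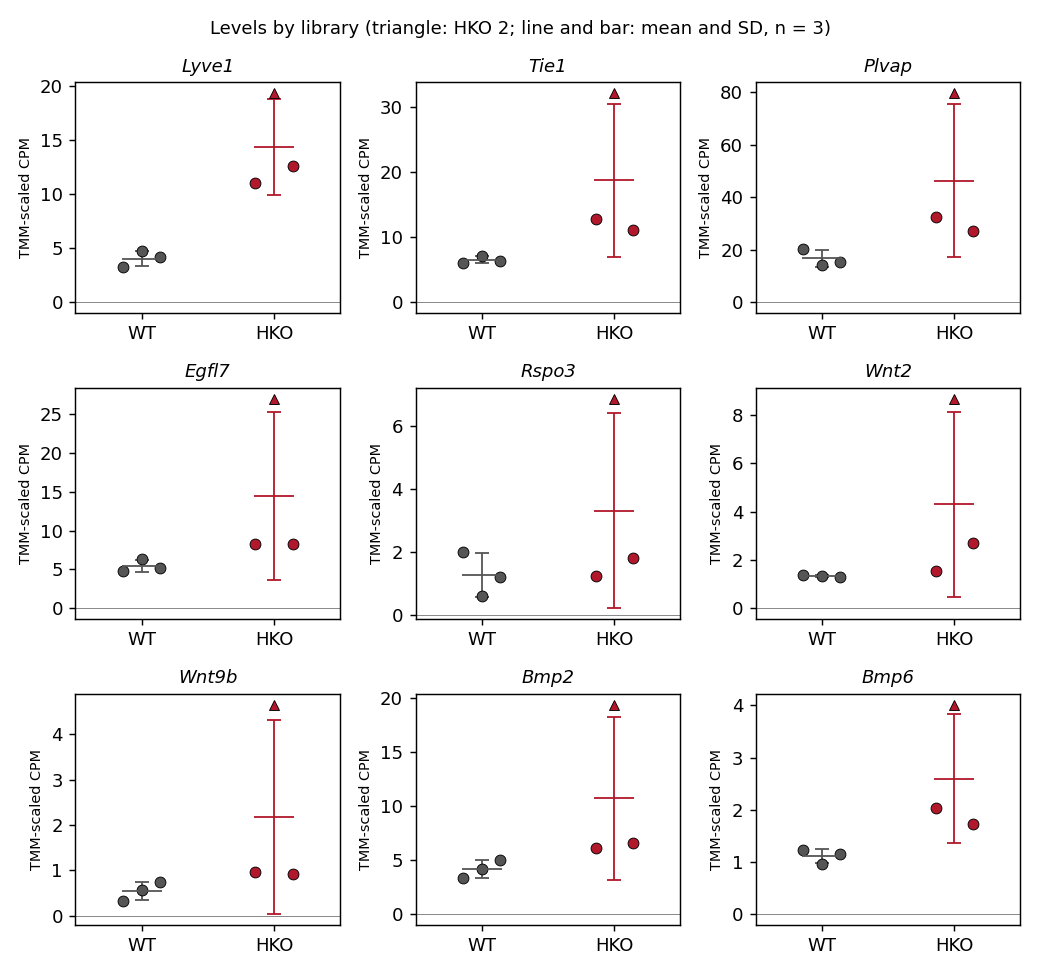
TMM-scaled CPM (y axis) of Lyve1, Tie1, Plvap, Egfl7 and the 5 angiocrine genes in each library of WT (grey) and HKO (red, with HKO 2 as a triangle), with the mean and SD over 3 libraries. HKO 2 is the highest point in each panel, and for Lyve1 the other HKO points also lie far above WT.

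No angiocrine ligand passed the test in the main edgeR fit, with or without HKO 2. At an unadjusted p below 0.05, 4 of 5 were higher with HKO 2 and 2 of 5 without it, beside 20.2% and 19.4% of all genes tested. Wnt9b was among those 4, and it passed the expression filter only through HKO, where it was high. DESeq2 called 4 of 5 (12.8% of all genes tested were called higher), and limma-voom called 0 (11.7%). Some other edgeR fits called a ligand: Bmp2 with column totals (10.6%) or no filter (7.71%), and Bmp6 with at least 10 counts in every library (12.9%). RLE scaling and a replicate block called none. Leaving out HKO 1 gave a call of Wnt2, and no share of all genes was counted there. The median log2 fold change of the 5 ligands was 1.35 with HKO 2 and 0.67 without it. Counts were low, from 6 to 334 per gene and library, which limits the precision of each value.

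The Wnt ligand genes lay above WT in every HKO library. Wnt2 (ENSMUSG00000010797, chromosome 6, 17988940 to 18030585, minus strand), a ligand of pericentral and sinusoidal endothelium, had 29, 149 and 59 counts in HKO 1, 2 and 3 and 25, 24 and 21 in WT 1, 2 and 3. In CPM these were 1.56, 8.66 and 2.69 against 1.39, 1.35 and 1.28. WT hardly varied, HKO 1 lay just above it, and HKO 2 stood far higher (log2 fold change 1.67 ± 0.60, adjusted p = 0.0811, against 0.67 ± 0.33 without HKO 2, adjusted p = 0.172, both with SE). Wnt9b, the other Wnt of central vein endothelium, had 18, 80 and 20 counts in HKO and 6, 10 and 12 in WT, or 0.967, 4.65 and 0.911 CPM against 0.333, 0.562 and 0.732 CPM. Its log2 fold change was 1.98 (SE 0.73, adjusted p = 0.0854) and 0.79 without HKO 2 (SE 0.44, adjusted p = 0.228). With so few counts in WT, Wnt9b passed the expression filter only through HKO, where it was high.

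Rspo3, which encodes the R-spondin that strengthens Wnt signals through LGR4 and LGR5, overlapped between the groups. It had 23, 118 and 40 counts in HKO 1, 2 and 3 and 36, 11 and 20 in WT 1, 2 and 3, or 1.24, 6.86 and 1.82 CPM against 2.0, 0.618 and 1.22 CPM. WT 1 exceeded both HKO 1 and HKO 3, and the log2 fold change was 1.35 (SE 0.70, adjusted p = 0.194) and 0.26 (SE 0.48) without HKO 2.

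The BMP ligand genes had no overlap between groups. Bmp2 (ENSMUSG00000027358, chromosome 2, 133552159 to 133562885, plus strand) stood at 6.18, 19.4 and 6.61 CPM in HKO 1, 2 and 3, against 3.33, 4.16 and 5.06 CPM in WT 1, 2 and 3. The difference on the log2 scale was 1.35 ± 0.45 (SE, adjusted p = 0.0658), or 0.62 ± 0.22 without HKO 2 (adjusted p = 0.0767). Bmp6 stood at 2.04, 4.01 and 1.73 CPM in HKO and at 1.22, 0.955 and 1.16 CPM in WT, with values of 1.21 (adjusted p = 0.0578) and 0.76 (adjusted p = 0.107). Exons of Bmp6 overlap those of Txndc5 on the opposite strand, which held 2072 to 4703 counts against 17 to 69 for Bmp6. Txndc5 was lowest in HKO 2, where Bmp6 was highest, and Txndc5 was called higher without HKO 2 (log2 fold change 0.48, adjusted p = 0.0149).

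To describe the genes against their own compartment, each gene's counts were divided by the summed counts of the other pan-endothelial genes of the library. That sum was 3156, 8753 and 4433 counts in HKO 1, 2 and 3 and 1964, 2731 and 2136 counts in WT 1, 2 and 3, over all 18 genes. On this scale 30 of the 38 tested genes overlapped between HKO and WT, and 32 differed by less than 0.5 in the mean log2 ratio. In 8 of the 38 all HKO values lay inside the WT range, and in the rest of the overlapping genes some HKO values lay outside it. These values are a description with no test, and no share of all genes tested stands beside the counts. The 18 pan-endothelial genes also form the sums by which they are divided. Their ratios therefore cannot all rise or all fall together between libraries, and part of the overlap is built in.

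On that scale 4 genes lay above WT in every HKO library and 4 lay below, again with no test and no share of all genes beside these counts. Above were Lyve1, Flt4, Flt1 and Tie1. Lyve1 was at 1.08, 0.30 and 1.02 in HKO 1, 2 and 3 relative to the WT mean on the log2 scale, against -0.04 to 0.04 in WT, and was therefore least above WT in HKO 2. Flt4 was at 0.21, 0.19 and 0.19, close to WT 2 at 0.09. The margins of Tie1 and Flt1 were small as well: Tie1 was at 0.147 in HKO 3 and 0.146 in WT 1. Flt1 was at 0.107 in HKO 1 and 0.096 in WT 3. Below were Gata4, Ehd3, Tek and Ecscr, with Gata4 at -0.99, -1.63 and -0.55 and Tek at -0.38, -0.36 and -0.49. Ehd3 was below by little, at -0.118 in HKO 2 and -0.093 in WT 1. Vwf in HKO 2 was at 2.19, the highest value of any gene and library, and Wnt9b and Wnt2 in HKO 2 were at 1.20 and 0.72.

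**Figure D4:**
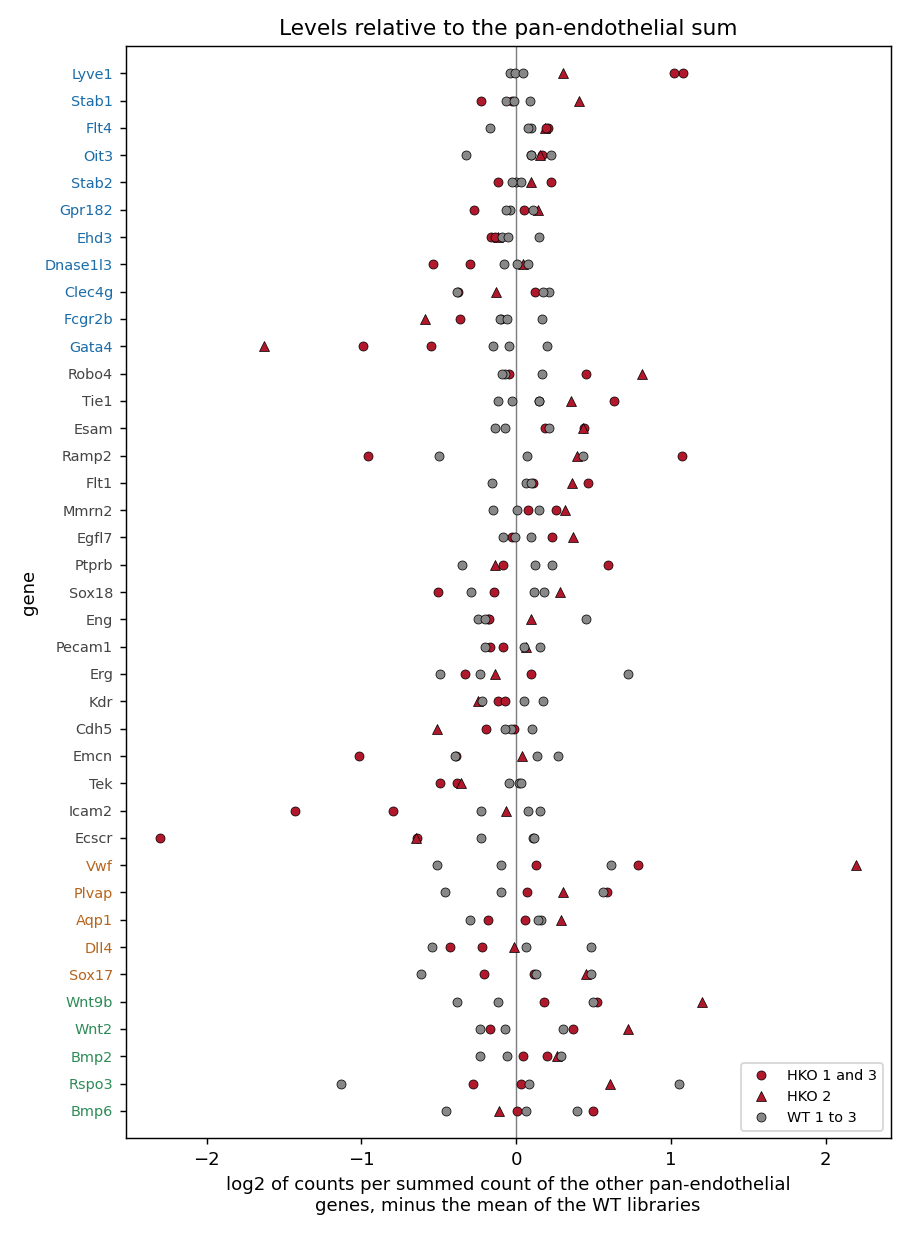
Log2 of each gene's counts per summed count of the other pan-endothelial genes, minus the WT mean (x axis), for the 39 genes (y axis) in WT (grey), HKO 1 and 3 (red circles) and HKO 2 (red triangles). Most points fall near 0, Lyve1 lies to the right in HKO 1 and HKO 3, Gata4 lies to the left, and Vwf in HKO 2 is furthest right.

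Of 29 further endothelial genes tested, 4 were called higher and 1 lower, beside 12.1% and 11.2% of all genes tested. The 29 had a median log2 fold change of 1.05. Without HKO 2, 3 were called higher and 1 lower, with a median of 0.29. The protein C receptor gene Procr (log2 fold change 2.55), the thrombomodulin gene Thbd (2.12), the nitric oxide synthase gene Nos3 (1.61) and the adhesion receptor gene Adgrf5 (1.40) were higher. Without HKO 2 these values were 2.51, 1.40, 0.94 and 0.88, and Adgrf5 was no longer called. S1pr1, a sphingosine phosphate receptor gene, was lower (-0.70). Procr stood at 1.13, 1.10 and 0.911 CPM in HKO 1, 2 and 3, against 0.167, 0.169 and 0.183 CPM in WT 1, 2 and 3, with no excess in HKO 2. These are 21, 19 and 20 counts against 3 in each WT library, so Procr passed the expression filter only through HKO, where it was high. Procr and S1pr1 were called whichever library was left out. Thbd was lost without WT 3 (adjusted p = 0.0607), Nos3 without any single WT library (adjusted p from 0.0813 to 0.105), and Adgrf5 without any library but HKO 1 (adjusted p from 0.055 to 0.119).

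A list of 12 VEGF, angiopoietin and other ligand genes summed to 241 CPM in HKO 2, within the 221 to 254 CPM of HKO 1 and HKO 3. Cxcl12 made up most of that sum (170 CPM in HKO 2). Hgf was instead highest in HKO 2, at 5.75, 21.1 and 11.2 CPM in HKO 1, 2 and 3, against 5.11 to 6.16 CPM in WT. It was not called (log2 fold change 1.12, adjusted p = 0.0855). Of the 12 ligand genes 6 were tested, and Vegfb, which encodes a ligand of FLT1, was called higher (log2 fold change 1.23, adjusted p = 0.00599, and 1.40 without HKO 2), while Vegfa had 0.12 (adjusted p = 0.424). Of all genes tested, 12.1% were called higher and 11.2% lower, or 12.5% and 12.2% without HKO 2. Among 15 tested co-receptor and partner genes, Notch4 (1.47) and Lrp5 (0.45) were called higher and Lgr5 (-1.85), Lgr4 (-0.65) and Bmpr1a (-0.38) lower. Without HKO 2 none was called higher and 4 were called lower: Lgr5, Lgr4 and the VEGF co-receptor genes Nrp1 (-0.50, adjusted p = 0.0131) and Nrp2 (-0.95, adjusted p = 0.00546). Lgr4 was called whichever library was left out. The calls of Notch4, Lrp5 and Bmpr1a were lost without HKO 2 (adjusted p = 0.0851, 0.0735 and 0.0956) and without any single WT library (adjusted p from 0.0518 to 0.154), and each also without 1 other HKO library.

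Genes that respond to the angiocrine signals did not follow the ligands in a single direction. The shares called among all genes tested were 12.1% higher and 11.2% lower, or 12.5% and 12.2% without HKO 2. Of 8 tested BMP response genes 1 was called, and it was lower: Hamp, the hepcidin gene, with 54.4, 154 and 46.8 CPM in the HKO libraries in order, while WT 1, 2 and 3 had 202, 398 and 364 CPM (log2 fold change -1.92, adjusted p = 0.024). The Hamp groups did not overlap, and the call was lost without HKO 1, HKO 3, WT 2 or WT 3 (adjusted p from 0.0635 to 0.0806). Without HKO 2, Hamp (-2.67), Id1 (-2.09) and Id3 (-0.87) were called lower. Of 15 tested Wnt response genes, Cyp2e1 was called higher (log2 fold change 1.07) and Rhbg (-2.32), Lgr5 (-1.85) and Tcf7 (-0.84) lower, with a list median of 0.05. The same number of Wnt response genes was called in each direction without HKO 2. Lgr5 had 2.42, 3.20 and 2.69 CPM in the HKO libraries in order, while WT 1, 2 and 3 had 18.6, 4.21 and 7.02 CPM, and without WT 1 its value was -1.03 (adjusted p = 0.0531). The call of Lgr5 was also lost without HKO 1, HKO 3 or WT 3, those of Tcf7 without HKO 1, HKO 3, WT 1 or WT 3, and that of Cyp2e1 without WT 3 (adjusted p from 0.0539 to 0.1).

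Markers of other non-hepatocyte cells were also highest in HKO 2 for stellate cells, fibroblasts and mesothelium. Summed, 16 stellate cell markers reached 483 CPM in HKO 2. Their sum was 199 to 206 CPM in HKO 1 and HKO 3 and 140.4 to 172 CPM in WT. Of 15 tested stellate markers, 6 were called higher and 1 lower (6 and 2 without HKO 2). Across all genes tested these shares were 12.1% and 11.2% (12.5% and 12.2% without HKO 2). Fibroblast and matrix genes summed to 343 CPM in HKO 2, against 30.6 to 31.9 CPM in HKO 1 and HKO 3 and 29.0 to 49.3 CPM in WT, and the median log2 fold change of 8 tested genes was 1.82, or -0.33 without HKO 2. Mesothelial markers summed to 15.2 CPM in HKO 2 and to at most 0.729 CPM elsewhere, and Msln, which encodes mesothelin, stood at 4.88 CPM in HKO 2 and at 0 in the other 5 libraries. Neutrophil markers summed to 2.91 CPM in HKO 2 and 0.278 to 0.591 CPM elsewhere, and T cell and NK cell markers to 0.989 CPM in HKO 2 and at most 0.376 CPM elsewhere, with Ly6g and Cd3d at 0 in every library. Kupffer cell markers had a lower sum in HKO 2 than in HKO 1 and HKO 3. The part of these cells, and of the mitochondrial share, in the HKO 2 values of endothelial genes was not tested.

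**Figure D5:**
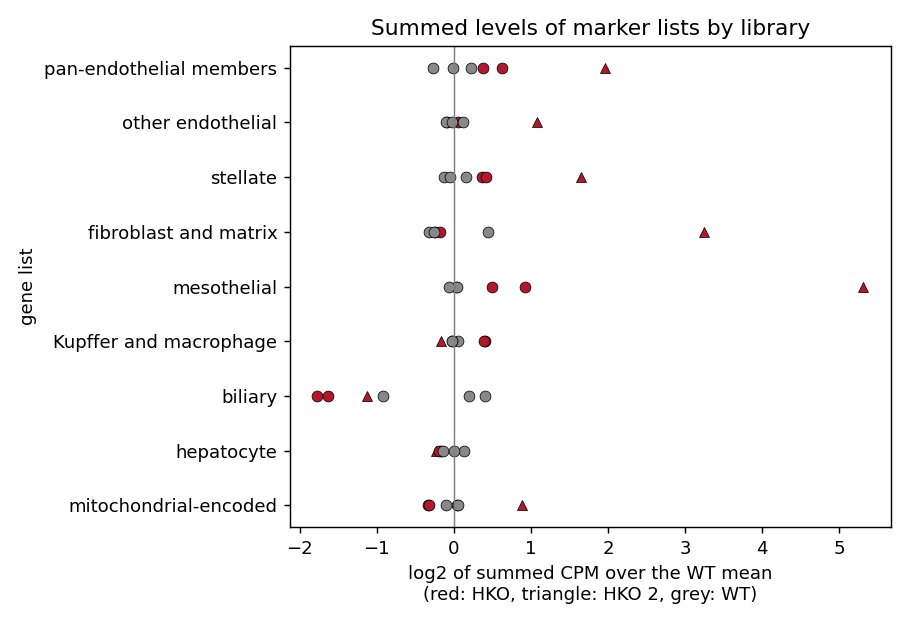
Log2 of the summed CPM of each marker list over its WT mean (x axis) by list (y axis) in WT (grey), HKO (red circles) and HKO 2 (red triangle). HKO 2 lies far to the right for endothelial, stellate, fibroblast and mesothelial markers, to the left of the other HKO libraries for Kupffer cell markers, and near them for hepatocyte markers.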

How the data were processed

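RNA of 6 liver libraries was sequenced. HISAT2 2.0.4 and StringTie 1.3.0 are named, with builds mm10 and GRCm38.p4, in the submitters' processing notes. The authors deposited raw read counts and per gene FPKM values, which account for gene length and depth, per the file headers. The handling of reads shared by genes is not stated in these sources. FPKM served only to compare levels between genes.

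The deposited counts were tested with edgeR 4.0.16 under R 4.3.3 (filterByExpr, 12556 of 34745 genes; TMM scaling; quasi-likelihood F-test without a block; Benjamini-Hochberg over all genes tested; threshold 0.05). Each standard error was derived from the fold change and its F statistic. The fit was tested on simulated data. Alternatives were limma 3.58.1 (voom), DESeq2 1.42.0, other scalings and filters, a replicate block and leaving out each library. Exon overlaps came from GENCODE M21, where 30 of 39 genes have the table's coordinates. Genes named in full were those called in either comparison, the angiocrine ligands and the gene of each class with the highest WT FPKM. Vwf, Gata4, Tek and others were chosen after their values were seen. Of the related lists, up to 5 called genes each were named, those with the largest changes. Members and lists were chosen with earlier results of these data known. Of 240 list entries, 1 was not matched to a single row.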

Additional observations from a re-analysis of the deposited data

How the results depend on the processing

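The number of the 39 genes called higher, 3 with all 6 libraries, moved with the processing. It was 4 with RLE scaling (11.7% of all genes were called higher), 2 with limma-voom (11.7%), 15 with column totals (10.6%), 12 with no filter (7.71%), 6 with at least 10 counts in every library (12.9%) and 20 with DESeq2 (12.8%). With a library left out it ranged from 1 to 12, and without HKO 2 it was 4 (12.5%). The share of all genes was not counted for the other fits that leave out a library. No gene was called lower in any of these settings. Without HKO 2 the class medians fell from 1.18 to 0.38 (sinusoidal), 1.17 to 0.41 (pan-endothelial), 1.37 to 0.61 (vessel-type) and 1.35 to 0.67 (angiocrine). The scalings moved the median of all tested genes by less than 0.1 on the log2 scale. Lyve1 was called in all 14 settings, Plvap in 11 and Tie1 in 10, and limma-voom lost Tie1 (adjusted p = 0.0604). The replicate numbers are shared by the groups but nothing ties equal numbers together (correlations of deviations of -0.0019, 0.0025 and 0.072 for numbers 1, 2 and 3). With a replicate block 16 genes were called higher (9.92% of all genes), and not every library correlated best with its own number.

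Signs changed only in genes that passed no test. With a library left out, Gata4 ran from -0.21 without HKO 2 to 0.20 without HKO 1, with 0.04 without WT 2, and it was at 0.0012 with at least 10 counts in every library. Without HKO 2 and without HKO 3, Ecscr ran from -0.84 to 0.69, Emcn from -0.24 to 1.25 and Icam2 from -0.60 to 1.13. Ecscr was at -0.28 with limma-voom and -0.071 with the replicate block. The cause was not tested. Low counts limit the angiocrine ligands, Dll4, Sox17 and Vwf: Sox17 was below the filter, and Wnt9b dropped out at 10 counts in every library.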
